A study of Homo sapiens with 9 samples.

Results

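The OAS family comprises OAS1, OAS2, OAS3 and OASL, which were followed here in OVCAR4 cells, a human high-grade serous ovarian cancer line, after shRNA knockdown of MPZL3. The 4 members were taken by gene name from the 58735 genes of the count table, and the family was selected on its rise after knockdown: OAS genes were among the largest rises against the control. Their values against the control are therefore given as a description without a test, and the members were tested only between the 2 shRNAs, a difference that did not enter their selection. All 4 members were among the 16928 genes with enough counts to be tested.

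Transcripts were counted in 9 libraries, 3 per group. All cells were OVCAR4 transduced with lentiviral shRNA vectors and selected with puromycin for 3 days, the controls included. The study names the pLKO.1 vector for the control shRNAs and the TRC library as the source of those against MPZL3. The control cells (scr control) carried a scramble shRNA and the others carried shMPZL3 #1 or shMPZL3 #2, each against MPZL3, a predicted cell adhesion molecule with an immunoglobulin-like domain. The study describes the 3 libraries of each group as biological replicates of this 1 line.

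OAS proteins are interferon-inducible sensors of double-stranded RNA. On binding it, OAS1, OAS2 and OAS3 join ATP into short 2-5A chains, a second messenger of the antiviral response. OASL keeps the fold of the family and carries ubiquitin-like repeats but makes no 2-5A, and it is known for strengthening signalling from the RNA sensor RIG-I (DDX58). OAS genes are classical targets of ISGF3, a complex with STAT2 and IRF9 that binds interferon-stimulated response elements in their promoters.

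The 3 OAS enzymes stand side by side on the plus strand of chromosome 12 (hg38), with OAS1 at chr12:112906777-112933222, OAS3 at chr12:112938352-112973249 and OAS2 at chr12:112978395-113011723. OASL lies apart on the minus strand at chr12:121019111-121039242. The longest annotated coding sequence was 1242 bases in OAS1, 2178 in OAS2, 3261 in OAS3 and 1542 in OASL. OAS2 and OAS3 are known to hold repeats of the OAS unit. The longest identical stretch between transcripts of any 2 members was 31 bases, shared by OAS1 and OASL, and the other pairs shared at most 27 bases. An antisense gene, AC004551.1, overlaps OAS1, OAS2 and OAS3, and these libraries carry no strand information, but at most 2 reads were assigned to it in any library.

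RefSeq promoter sequence was at hand for 2 of the 4 members, OAS1 and OAS3. The RefSeq starts of these genes, 112906962 and 112938474, lie 185 and 122 bases after the gene starts given above, which come from the count table, so that the windows overlap the genes as annotated there. The 250 bases before each RefSeq start (GRCh38.p14, plus strand) are printed to show the ISGF3-type motifs of these 2 genes, with matches to GAAANNGAAA or GAAANGAAA in capitals.
OAS1, chr12:112906712-112906961: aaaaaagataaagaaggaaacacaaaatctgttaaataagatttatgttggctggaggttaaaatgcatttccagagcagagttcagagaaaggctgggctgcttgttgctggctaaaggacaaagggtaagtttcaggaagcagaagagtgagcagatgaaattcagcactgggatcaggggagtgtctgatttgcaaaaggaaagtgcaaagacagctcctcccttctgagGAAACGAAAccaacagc
OAS3, chr12:112938224-112938473: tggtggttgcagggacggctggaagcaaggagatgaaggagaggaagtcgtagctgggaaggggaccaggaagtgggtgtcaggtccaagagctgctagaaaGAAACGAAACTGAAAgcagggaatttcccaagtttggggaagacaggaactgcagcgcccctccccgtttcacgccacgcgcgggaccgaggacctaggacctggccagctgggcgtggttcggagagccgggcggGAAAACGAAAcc

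OAS1 held 1 match, GAAACGAAA, whose first base lay 17 bases before the RefSeq start. OAS3 held 3 matches. GAAACGAAA at 148 and GAAACTGAAA at 143 bases before its RefSeq start overlap each other, and GAAAACGAAA lay at 12. Both strands were searched. Of 35116 RefSeq promoters cut to the same 250 bases, 3.02% held GAAANNGAAA, 2.69% held GAAANGAAA and 5.48% held either. These matches describe letters in the window, and binding was not measured.

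The libraries held between 15040102 and 27835841 counted reads, and mitochondrial transcripts made up 7.16 to 8.65% of them. MPZL3 itself fell to 128 ± 12.9 normalized counts with shMPZL3 #1 and 312 ± 59.5 with shMPZL3 #2, from 578 ± 38.5 in the control (SD, n = 3 each). Normalized counts are reads scaled to a common library size. MPZL3 was therefore higher with shMPZL3 #2 than with shMPZL3 #1, by 1.28 ± 0.16 on the log2 scale (SE, edgeR adjusted p = 5.72e-05). Of 10 markers of serous ovarian carcinoma and epithelium, 9 passed the count filter, and WT1, with 3 to 13 reads per library, did not.

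OAS1 was barely detected in the control and was the second of the members in fold. It had 3, 7 and 18 reads in the scr control libraries, 132, 154 and 359 with shMPZL3 #1 and 387, 573 and 855 with shMPZL3 #2. The 3 groups did not overlap, either as reads or after normalization. Normalized counts averaged 11.8 ± 11.3 (SD, n = 3 here and for the other means) in scr control cells, against 204 ± 118 for shMPZL3 #1 and 539 ± 131 for shMPZL3 #2. OAS1 was thus 18.1-fold higher than the control with shMPZL3 #1 (log2 4.18 ± 0.48, SE) and 47.8-fold higher with shMPZL3 #2 (log2 5.58 ± 0.47). Without replicate 3 of the control, which had 18 reads, these log2 values were 5.18 and 6.58. In bulk libraries, more cells expressing a gene and more RNA per cell cannot be told apart.

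OAS2 showed the highest folds of the family and the widest spread. Its reads numbered 1, 7 and 14 in the control, 75, 128 and 539 with shMPZL3 #1, and 392, 578 and 1037 with shMPZL3 #2. Both knockdown groups lay above the control, but they overlapped each other, because replicate 3 of shMPZL3 #1, at 509.8 normalized counts, lay above replicate 1 of shMPZL3 #2, at 396.8. Means were 9.06 ± 9.21, 235 ± 240 and 588 ± 191 normalized counts (SD). The fold over the control was 26.6 with shMPZL3 #1 (log2 4.73 ± 0.75, SE) and 66.6 with shMPZL3 #2 (log2 6.06 ± 0.72). Without replicate 3 of shMPZL3 #1, the log2 value of that shRNA was 3.47. Without replicate 3 of the control, the highest of its group, it was 5.70 with shMPZL3 #1 and 7.02 with shMPZL3 #2.

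OAS3, the largest enzyme of the family, was the only member with more than 20 reads in every control library. It had 67, 207 and 186 reads in the control, 684, 785 and 1730 with shMPZL3 #1, and 2197, 2384 and 3711 with shMPZL3 #2. No knockdown library reached down to a control library, and the groups of the 2 shRNAs were separate. Normalized counts were 180 ± 84.4, 1014 ± 544 and 2477 ± 287 (SD, n = 3 each). OAS3 was 5.62-fold higher with shMPZL3 #1 (log2 2.49 ± 0.32, SE) and 13.7-fold higher with shMPZL3 #2 (log2 3.78 ± 0.33).

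OASL, the member without 2-5A activity, differed least with shMPZL3 #1. Its reads were 2, 14 and 20 in the control, 32, 42 and 37 with shMPZL3 #1, and 117, 102 and 191 with shMPZL3 #2. The highest control library and the lowest shMPZL3 #1 library nearly met after normalization, at 27.5 and 29.3 counts, whereas the shMPZL3 #2 libraries stood clear of both at 103 or more. Means were 14.5 ± 12.5, 35.3 ± 6.23 and 122 ± 20.3 normalized counts (SD, n = 3 each). The fold over the control was 2.46 with shMPZL3 #1 (log2 1.30 ± 0.44, SE) and 8.49 with shMPZL3 #2 (log2 3.09 ± 0.41). Without replicate 1 of the control, which had 2 reads, the log2 value with shMPZL3 #1 was 0.84, and without replicate 3 of the control it was 2.02, and 3.80 with shMPZL3 #2.

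With both shRNAs grouped as one knockdown condition, as the study grouped them, the log2 difference from the control was 5.04 ± 0.70 for OAS1, 5.54 ± 0.90 for OAS2, 3.28 ± 0.50 for OAS3 and 2.45 ± 0.66 for OASL (SE). For each of the 4 members every knockdown library lay above every control library, as did 11.8% of all genes tested. Separately, each member lay above the control without overlap with shMPZL3 #1 (23.9% of all genes) and with shMPZL3 #2 (18.7%). Since the members were selected on these differences, nothing is read from those counts. Without replicate 3 of the control the grouped values were 6.04, 6.51, 3.58 and 3.19 for OAS1, OAS2, OAS3 and OASL, and without replicate 1 of the control they were 4.66, 5.07, 2.95 and 1.98. The controls rest on few reads, with 28, 22 and 36 in all over the 3 control libraries for OAS1, OAS2 and OASL, so their folds are known less closely than the fold of OAS3, with 460.

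**Figure D1:**
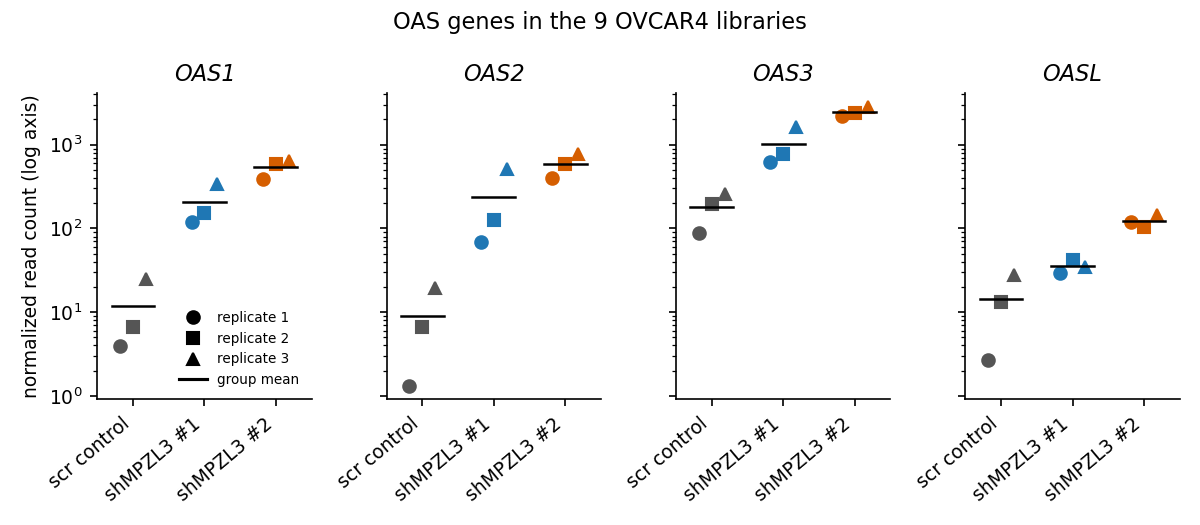
Normalized read counts on a log axis for OAS1, OAS2, OAS3 and OASL in the 3 scr control, 3 shMPZL3 #1 and 3 shMPZL3 #2 libraries, with the replicate number as the symbol and the group mean as a bar. The 4 OAS genes are highest with shMPZL3 #2, from a mean of 122 for OASL to 2477 for OAS3, and no knockdown library lies at or below a control library.

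The test between the 2 shRNAs asked whether the OAS genes responded to the same extent. OAS1, OAS3 and OASL were higher with shMPZL3 #2 than with shMPZL3 #1, although MPZL3 was lower with shMPZL3 #1. The difference was 1.40 ± 0.32 on the log2 scale for OAS1 (SE, edgeR adjusted p = 0.00745), or 2.64-fold. It was 1.29 ± 0.28 for OAS3 (edgeR adjusted p = 0.00559), or 2.44-fold. For OASL it was 1.79 ± 0.36 (edgeR adjusted p = 0.00308), or 3.45-fold, and OASL was thus the member with the largest difference between the shRNAs and the smallest over the control. OAS2 differed by 1.32 ± 0.47, much as OAS1 and OAS3 did, but missed the threshold (edgeR adjusted p = 0.0684). Of all genes tested, 7.56% were called higher and 7.56% lower in this comparison, and 3 of the 4 members were called higher.

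The same 3 members had every shMPZL3 #2 library above every shMPZL3 #1 library, as did 15.4% of all genes. Without replicate 1 of shMPZL3 #1 the difference was 1.12 for OAS1 and 1.03 for OAS3, and without replicate 3 of shMPZL3 #1 it was 1.98 and 1.82, called each time by edgeR. The OAS2 result turned on replicate 3 of shMPZL3 #1: without it the difference was 2.59 (edgeR adjusted p = 0.000279), and without replicate 1 of that group it was 0.88. With the replicate number added to the model, OAS2 was called at 1.69 (edgeR adjusted p = 1.59e-05). The OAS1 call was lost with DESeq2, at 1.39 and an adjusted p of 0.12. OAS3 and OASL were called under every alternative in which they could be tested, with differences of 1.03 to 1.82 and of 1.64 to 1.92.

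Replicate 3 of shMPZL3 #1 was the highest of its group for OAS1, OAS2 and OAS3, at 340 against 121 and 153 normalized counts for OAS1. OASL did not follow, with 35.0 in that library against 29.3 and 41.7. In the control, replicate 1 was the lowest for all 4 members and replicate 3 the highest. The spread between control libraries, as the SD of log2 CPM (counts scaled to library size), was 1.13 for OAS1, 1.34 for OAS2, 0.78 for OAS3 and 1.35 for OASL, and with shMPZL3 #2 it was 0.38, 0.49, 0.17 and 0.23.

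Per length, OAS3 was the most abundant member in each library. Its mean level was 1.06 ± 0.498 RPKM (reads per kilobase of gene and library size, SD, n = 3) in the control, 5.98 ± 3.21 with shMPZL3 #1 and 14.6 ± 1.69 with shMPZL3 #2. OAS1 averaged 0.116, 2.01 and 5.30 RPKM in the same groups, and OAS2 averaged 0.0704, 1.83 and 4.57. OASL averaged 0.200, 0.489 and 1.69. In the control OASL was thus on average above OAS1 and OAS2, within their spread, and with either shRNA it was the lowest member in every library.

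The members did not contribute equally to the summed OAS level. OAS3 made up 77.1 ± 10.1% of the summed RPKM of the 4 members in scr control cells, 59.6 ± 4.06% after shMPZL3 #1 and 56.3 ± 3.72% after shMPZL3 #2 (SD). OAS1 went from 7.19 ± 3.17% in the control to 19.7 ± 0.64% and 20.1 ± 2.16%, and OAS2 from 3.93 ± 2.46% to 14.9 ± 7.0% and 17.1 ± 2.74%. Between the 2 shRNAs these shares differed by less than their spread. The summed level was 0.612, 1.45 and 2.28 RPKM in the control libraries, 5.82, 7.68 and 17.4 with shMPZL3 #1, and 21.7, 26.0 and 30.8 with shMPZL3 #2.

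**Figure D2:**
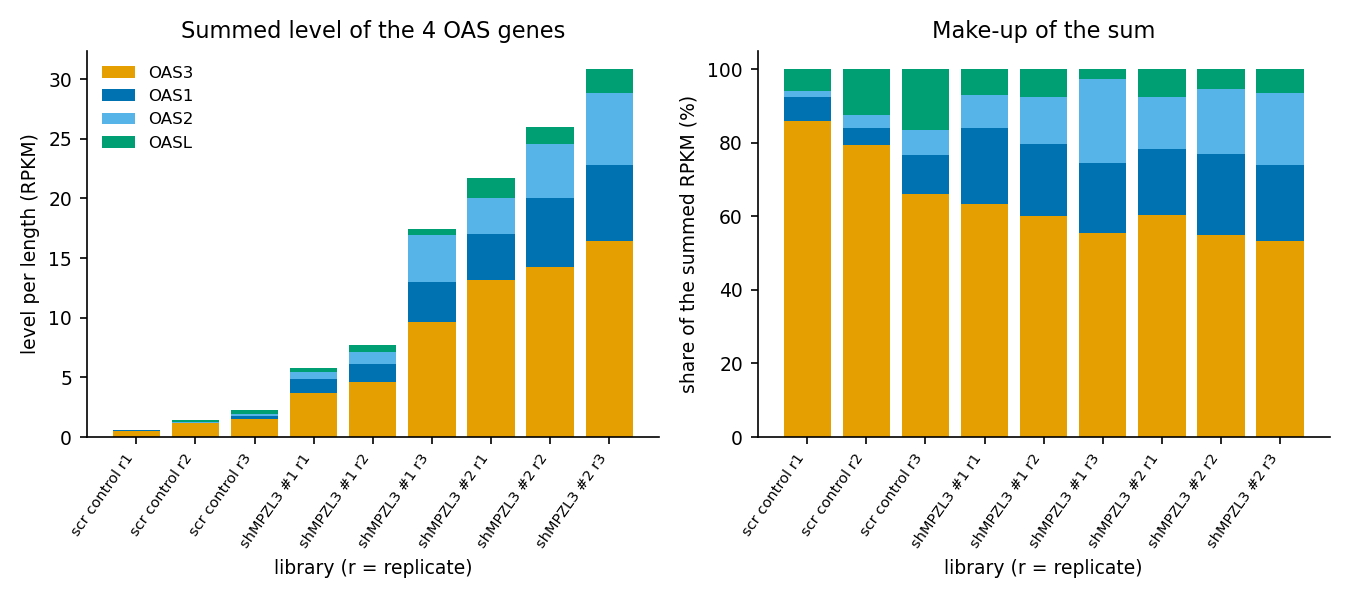
Summed RPKM of the 4 OAS genes in each library (left) and the share of each gene in that sum in percent (right), with stacked bars for OAS3, OAS1, OAS2 and OASL. The sum runs from 0.612 in a control library to 30.8 in a shMPZL3 #2 library, and OAS3 holds at least 53.4% of it in each library.

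Of 4 genes listed for the turnover of 2-5A and its pathway, none rose. ABCE1, an ATPase best known for recycling ribosomes, fell by 0.66 with shMPZL3 #1 (edgeR adjusted p = 0.000826) and by 0.62 with shMPZL3 #2 (edgeR adjusted p = 0.00288). PDE12, a phosphodiesterase that degrades 2-5A, stood at 0.02 and -0.04 and was called in neither comparison. AKAP7, a relative of viral 2-5A phosphodiesterases, fell with shMPZL3 #2 (-0.74 ± 0.22, edgeR adjusted p = 0.0286), and with shMPZL3 #1 stood at -0.35. ENPP1, an ectonucleotidase, was called in neither. Of the 4 genes, 0 were called higher and 1 lower with shMPZL3 #1, where 16.8% of all genes were called higher and 15.3% lower. With shMPZL3 #2, 0 were called higher and 2 lower, where 9.36% and 5.8% of all genes were. In both comparisons edgeR at an unadjusted p under 0.05 and DESeq2 gave the same counts. The AKAP7 call was lost without replicate 2 or 3 of the control or replicate 1 or 3 of shMPZL3 #2 (edgeR adjusted p up to 0.15).

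Of the other sensors and adaptors of double-stranded RNA, 9 of 10 were tested. With shMPZL3 #1, 7 rose and 0 fell (1 at an unadjusted p under 0.05), and with shMPZL3 #2, 7 rose and 0 fell (0 unadjusted), all by edgeR, and DESeq2 gave the same counts. Over all genes, 16.8% were called higher and 15.3% lower with shMPZL3 #1, and 9.36% and 5.8% with shMPZL3 #2. In the grouped comparison, where 9.36% of all genes were called higher and 6.4% lower, 6 of the 9 rose. The median log2 difference of the list was 0.69 and 0.82 with the 2 shRNAs, beside 0.01 and 0.00 for all genes.

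IFIH1 (MDA5), a sensor of long double-stranded RNA, rose about equally with both shRNAs, from 174 ± 80.0 normalized counts to 1107 ± 349 and 1099 ± 169 (log2 2.67 ± 0.26 and 2.66 ± 0.26, edgeR adjusted p = 4.08e-06 and 5.07e-06). Its difference between the shRNAs was -0.01 ± 0.23. TLR3, the endosomal receptor for double-stranded RNA, rose with shMPZL3 #1 (2.20 ± 0.22) and with shMPZL3 #2 (1.43 ± 0.22), and was lower with shMPZL3 #2 (-0.77 ± 0.20, edgeR adjusted p = 0.0154). That last call was lost without replicate 2 or 3 of shMPZL3 #1 or replicate 1 of shMPZL3 #2 (edgeR adjusted p = 0.0631 to 0.0703). TICAM1, the adaptor of TLR3, rose by 0.91 ± 0.15 and 0.82 ± 0.15. DHX58 (LGP2), at 18.7 ± 4.71 normalized counts in the control, rose by 1.30 ± 0.44 and 1.48 ± 0.43, but both calls were lost without any 1 control library, and they were lost without replicate 3 of the knockdown group concerned or, for shMPZL3 #2, replicate 1 (edgeR adjusted p = 0.054 to 0.274). DDX58 and the RNA-dependent kinase EIF2AK2 (PKR) also rose with both.

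The adaptor MAVS rose with shMPZL3 #1 (0.41 ± 0.11, edgeR adjusted p = 0.00812), and its difference between the shRNAs was called (-0.44 ± 0.11, edgeR adjusted p = 0.0114). The first call was lost without replicate 1 of the control (edgeR adjusted p = 0.0512) and the second without replicate 3 of shMPZL3 #1 (0.0549). The editing enzyme ADAR, which marks cellular double-stranded RNA, rose with shMPZL3 #2 (0.43 ± 0.09, edgeR adjusted p = 0.00531) and was higher with it than with shMPZL3 #1 (0.31 ± 0.09, edgeR adjusted p = 0.0327). The difference between the shRNAs was lost without each library other than replicate 1 of the control, replicate 3 of shMPZL3 #1 and replicate 2 of shMPZL3 #2 (edgeR adjusted p = 0.0513 to 0.154). ZBP1 had at most 1 read in any library.

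Of 4 genes of DNA sensing by cGAS and STING, 1 was called with each shRNA. Calls over all genes were 16.8% higher and 15.3% lower with shMPZL3 #1, and 9.36% and 5.8% with shMPZL3 #2. CGAS, which shares the nucleotidyltransferase fold of the family, rose by 0.56 ± 0.17 with shMPZL3 #2 (edgeR adjusted p = 0.0352), and TBK1 fell with shMPZL3 #1 (-0.47 ± 0.15, edgeR adjusted p = 0.0241). The CGAS call was lost without any 1 control library or replicate 2 or 3 of shMPZL3 #2, and the TBK1 call without replicate 1 or 2 of the control or replicate 1 or 3 of shMPZL3 #1 (edgeR adjusted p = 0.0511 to 0.153 over both genes). STING (TMEM173) and IRF3 were called in neither comparison. In the grouped comparison 0 of these 4 genes were called by edgeR, with 0 higher and 1 lower at an unadjusted p under 0.05 and likewise by DESeq2.

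Of 8 genes of the interferon receptors and their signalling up to ISGF3, 3 rose with shMPZL3 #1 (STAT2, JAK1 and IFNLR1) and 1 with shMPZL3 #2 (STAT2), and in the grouped comparison 2 rose (STAT2 and JAK1). Of all genes, 16.8%, 9.36% and 9.36% were called higher in these comparisons. With shMPZL3 #2, DESeq2 called 2 higher and edgeR 3 at an unadjusted p under 0.05. None fell by edgeR or DESeq2 in these comparisons, also at an unadjusted edgeR p under 0.05. STAT2 rose by 0.61 ± 0.12 and 0.83 ± 0.12. JAK1, a kinase of the interferon receptors, stood at 0.45 ± 0.10 and 0.31 ± 0.10 with the 2 shRNAs, and its grouped call was lost without replicate 1 or 2 of the control (edgeR adjusted p = 0.184 and 0.1). IFNLR1, a chain of the receptor for type III interferons, stood at 0.38 ± 0.12 with shMPZL3 #1, and the call was lost without any 1 control library or replicate 3 of shMPZL3 #1 (edgeR adjusted p = 0.0549 to 0.111). IRF9, the DNA-binding part of ISGF3, was expressed at only 10.7 ± 2.90 normalized counts in the control and stood at 0.28 ± 0.50 and 1.37 ± 0.48, uncalled. The receptor chains IFNAR1 and IFNAR2 were called in neither comparison.

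Of 7 feedback and other regulators, USP18, IRF1 and IRF7 rose with both shRNAs and the others were not called. Among all genes, 16.8% were called higher with shMPZL3 #1 and 9.36% with shMPZL3 #2. IRF7, a master regulator of interferon-alpha genes, stood at 1.14 ± 0.28 with shMPZL3 #1 and 2.38 ± 0.28 with shMPZL3 #2, and its difference between the shRNAs was called (1.24 ± 0.26, edgeR adjusted p = 0.00377). Its normalized counts were 139 ± 37.1, 307 ± 142 and 725 ± 198 (SD, n = 3 each). USP18, which restrains signalling from the interferon receptor, rose by 1.03 ± 0.14 and 1.22 ± 0.14, and IRF1 by 0.89 ± 0.13 and 0.86 ± 0.13.

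Transcripts of the listed interferons themselves were scarce. None of the 16 listed type I, II and III interferon genes had enough reads to be tested. Interferon genes outside this list were not examined. IFNA1, IFNA2, IFNA5, IFNA6, IFNA8, IFNA13, IFNA14, IFNA21 and IFNG had 0 reads in all 9 libraries, and IFNB1, IFNK, IFNL1 and IFNL3 had at most 2 in any library. A count of 0 in a library allows up to 3 reads, which covers counting error only. The 3 others were IFNE, with up to 16 reads in both control and shMPZL3 #2 libraries, IFNW1, with 4 reads in 1 shMPZL3 #2 library, and IFNL2, with 5 in 1 shMPZL3 #2 library. IFNB1, IFNL1, IFNL2, IFNL3 and IFNW1 had their few reads in knockdown libraries only, and IFNE and IFNK had reads in control libraries as well. None of these counts was tested between groups. Interferon protein was not measured.

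Over all 49 pathway genes, of which 32 were tested, 13 rose and 2 fell with shMPZL3 #1, 12 and 2 did so with shMPZL3 #2, and 11 and 1 in the grouped comparison. Of all genes, 16.8% rose and 15.3% fell in the first, 9.36% and 5.8% in the second and 9.36% and 6.4% in the third. Between the shRNAs 3 were higher with shMPZL3 #2 (ADAR, CGAS and IRF7) and 2 lower (TLR3 and MAVS). There 7.56% of all genes were called higher and 7.56% lower, a share of calls near that of the pathway genes. The CGAS difference (0.51 ± 0.17, edgeR adjusted p = 0.049) was uncalled without any 1 of the 9 libraries (edgeR adjusted p = 0.0594 to 0.204). The 5 calls became 2 or 3 without any 1 library other than replicate 1 of the control and replicate 2 of shMPZL3 #2. The median log2 difference of these 32 genes was 0.22, 0.26, 0.28 and 0.10 in the 2 single, the grouped and the shRNA comparison.

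**Figure D3:**
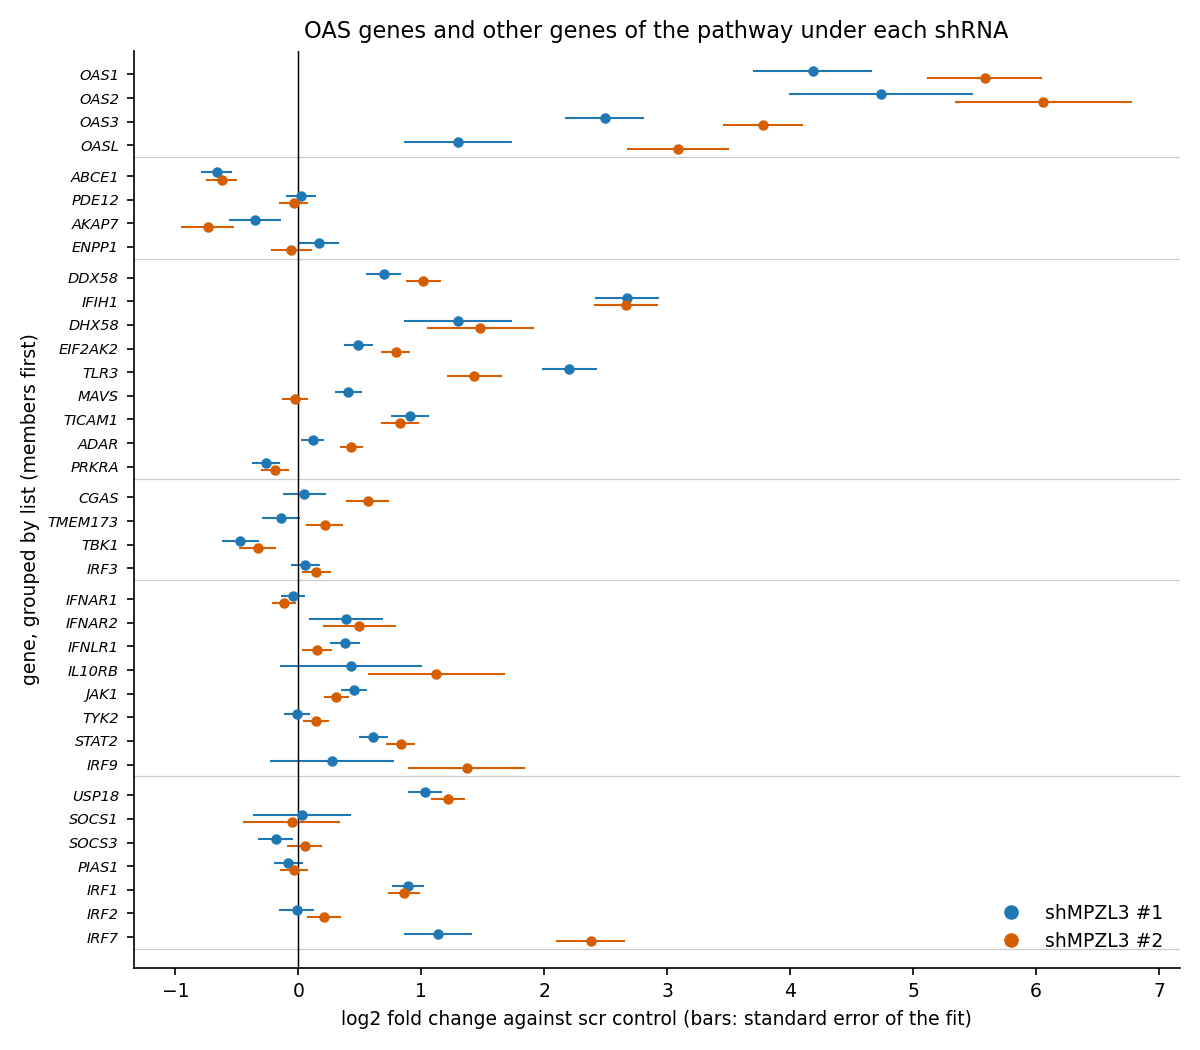
Log2 fold change against the scr control with shMPZL3 #1 and shMPZL3 #2 for the 4 OAS genes and the 32 tested pathway genes, grouped by list, with the standard error of the fit as bars. OAS2 lies farthest right at 4.73 and 6.06, IFIH1 has nearly the same value with both shRNAs, at 2.67 and 2.66, and IRF7 lies at 1.14 and 2.38.

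Genes next to the OAS loci did not share their values. Within 500 kb of a member lay 31 other protein-coding genes, of which 26 were tested. With shMPZL3 #1, 4 rose and 4 fell, where 16.8% and 15.3% of all genes did, a share of calls near that of all genes. With shMPZL3 #2, 1 rose and 1 fell, beside 9.36% and 5.8% of all genes. Their log2 differences ran from -0.56 to 1.08 and from -0.78 to 0.58. DTX1, the nearest protein-coding gene after OAS2, stood at -0.18 ± 0.26 and 0.07 ± 0.26, uncalled in both. RPH3A, before OAS1, and P2RX7, on the other side of OASL, had at most 4 and 1 reads in any library. With 1 library left out the 8 calls with shMPZL3 #1 became 3 to 5 without replicate 1 or 2 of the control or replicate 3 of shMPZL3 #1. The 2 calls with shMPZL3 #2 became 0 or 1 without replicate 1 or 2 of the control or replicate 1 or 3 of shMPZL3 #2, and 4 or 5 without replicate 1 or 2 of shMPZL3 #1 or replicate 2 of shMPZL3 #2. Within the cluster, OAS3 lay between OAS1 and OAS2 and had a lower fold than both.

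**Figure D4:**
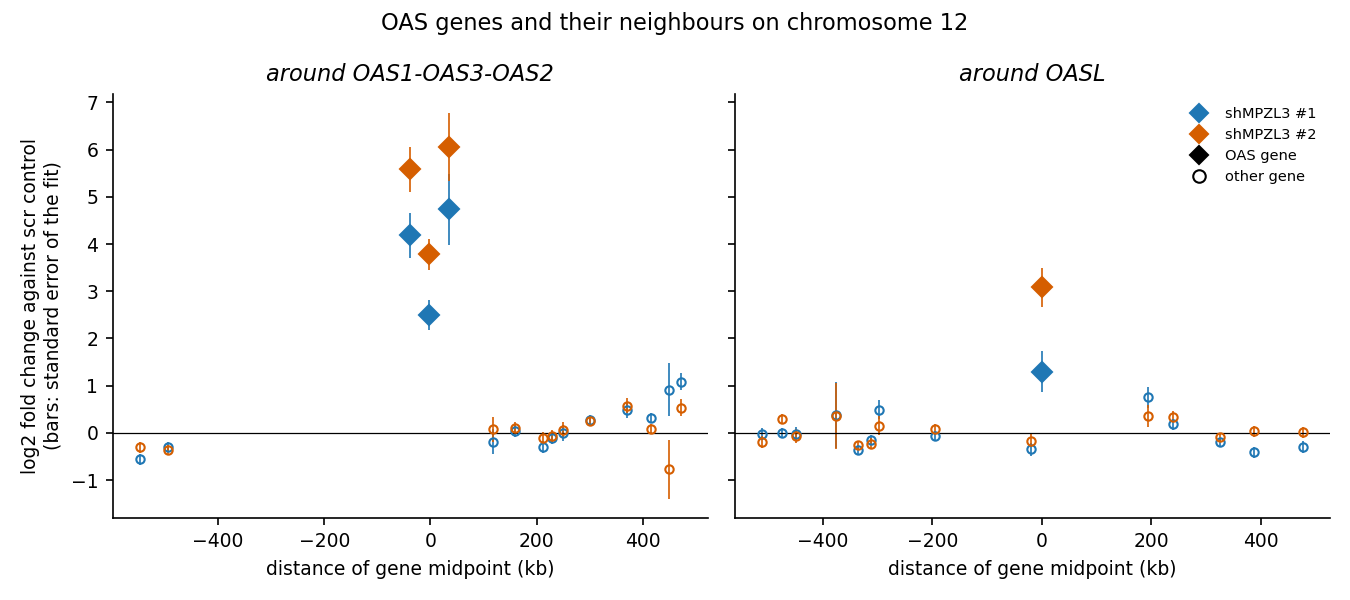
Log2 fold change against the scr control with each shRNA, plotted against the distance of a gene's midpoint in kb from the centre of the OAS1-OAS3-OAS2 cluster (left) or of OASL (right), with the standard error of the fit as bars. The OAS genes, as filled diamonds, stand at 1.30 to 6.06, and the neighbours that could be tested lie between -0.78 and 1.08.

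Each member was then set beside all other tested protein-coding genes by its profile over the 9 libraries, as the root mean square difference of log2 CPM, each centred on its mean. This is a description, in which group differences, replicate differences and shared libraries all count. Among the members, OAS1 and OAS2 were the closest pair (0.44 log2 units), followed by OAS3 and OASL (0.59), and OAS2 and OASL were the farthest apart (1.49).

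The genes nearest to OAS1 were IFI44L (0.22), IFI6, IFI44, OR2I1P and XAF1. IFI44L had 2, 5 and 15 reads in the control, 88, 160 and 390 with shMPZL3 #1, and 300, 480 and 871 with shMPZL3 #2. IFI44L, IFI6, IFI44 and XAF1 are interferon-inducible genes. OR2I1P shares 722 exon bases with GABBR1 and 836 with UBD, both on the other strand, so its reads could not be assigned with certainty. At most 2 reads were assigned to UBD in any library, a count that the shared bases make uncertain as well. XAF1 shares 2535 exon bases with PRAL on the other strand, which had at most 24 reads in any library. Nearest to OAS2 were IFI44L (0.33), IFI6, OR2I1P, IFI44 and MX1.

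Apart from MX1, which was also among the nearest of OAS2, OAS3 had other neighbours in profile. The nearest was MX1 (0.27), an interferon-inducible antiviral GTPase, with 247 ± 120 normalized counts in the control, 1749 ± 1098 for shMPZL3 #1 and 3604 ± 1097 with shMPZL3 #2. C5orf46, FN1, IFITM1 and IFIT1 followed. C5orf46 had 0, 0 and 1 reads in the control, where its log2 CPM depends on the constant added to the counts. FN1 encodes fibronectin and is not a classical interferon target. IFITM1 shares 351 exon bases with IFITM2, so reads in the shared stretch could not be assigned to either with certainty.

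Genes nearest to OASL included PDZK1IP1 (0.35), CXCL1, SLCO2A1 and CXCL2, and none of these was among the nearest of OAS1, OAS2 or OAS3. CXCL1 and CXCL2 are neutrophil-attracting chemokines, and SLCO2A1 is a prostaglandin transporter. CXCL1 had 1192 ± 641 normalized counts in the control, 2071 ± 165 for shMPZL3 #1 and 8996 ± 1426 with shMPZL3 #2. Like OASL, it differed mainly between shMPZL3 #2 and the other groups. With a prior count of 0.5 in place of 2, 3 of 5 names were kept for OAS1 and OAS2 and 4 of 5 for OAS3 and OASL. Over the 6 knockdown libraries alone 0, 1, 1 and 0 were kept for OAS1, OAS2, OAS3 and OASL.

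**Figure D5:**
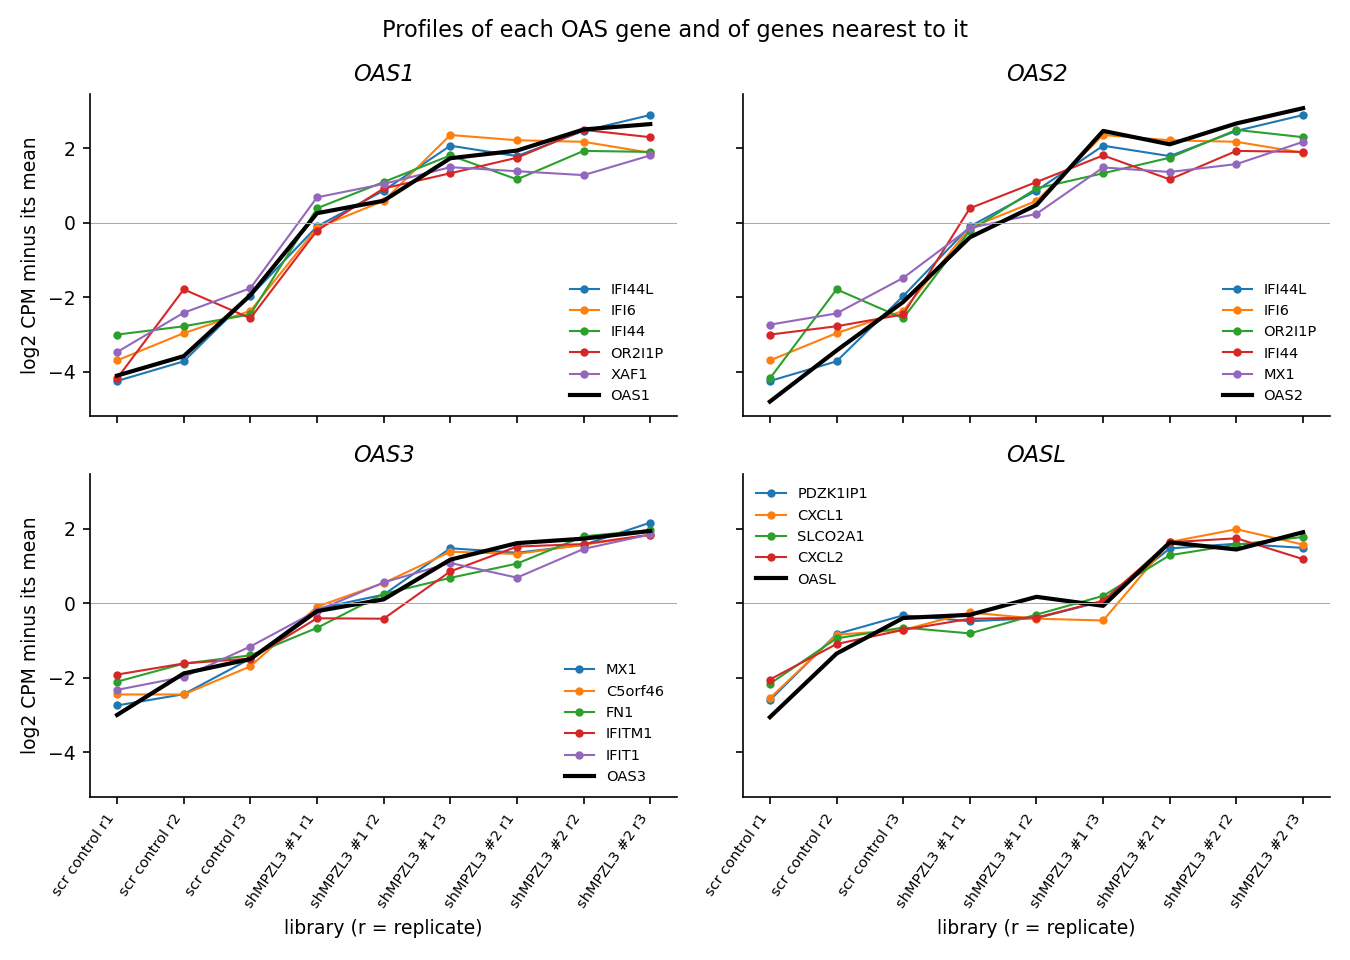
Log2 CPM minus the mean over the 9 libraries for each OAS gene (black) and for the protein-coding genes named as nearest to it in profile, with libraries on the horizontal axis. OAS1 and OAS2 climb between the control and shMPZL3 #1 libraries, whereas OASL and the genes drawn with it stand apart with shMPZL3 #2.

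RefSeq promoters were at hand for 12 of the 15 different genes nearest to a member. An ISGF3-type motif of either spacing was present in 6 of them, IFI44, IFI44L, IFI6, IFIT1, IFITM1 and MX1, all near OAS1, OAS2 or OAS3. Over all RefSeq promoters, 5.48% held either motif. These genes were taken for profiles like those of members selected on their rise, so the count is a description. No promoter of OASL itself was at hand.

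Some genes listed as markers of other cell types were detected in this 1 line and moved with the groups. The summed level of 10 blood and immune cell markers was 19.9 to 22.0 normalized counts in the control, 22.0 to 43.7 with shMPZL3 #1 and 38.5 to 57.8 with shMPZL3 #2. Of the 10, only CD14 and PTPRC had enough reads to be tested, and MS4A1 and HBB were at 0 in all 9 libraries. CD14, a monocyte marker with 3 to 34 reads per library, rose with both shRNAs (1.64 ± 0.49 and 1.55 ± 0.50, edgeR adjusted p = 0.0178 and 0.0435) and grouped (1.60 ± 0.42, edgeR adjusted p = 0.0237), and PTPRC was called in none of these comparisons. The CD14 call with shMPZL3 #1 was lost without replicate 1 or 3 of the control or replicate 3 of shMPZL3 #1, that with shMPZL3 #2 without any 1 library other than replicates 1 and 3 of shMPZL3 #1 or with no filter on low counts, and the grouped call without replicate 1 or 3 of the control (edgeR adjusted p = 0.05 to 0.18 over these).

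Of 3 markers of plasmacytoid dendritic cells, a known source of interferon, CLEC4C was at 0 in all libraries, LILRA4 had 2 reads in 1, and IL3RA had 23 to 59 reads per library. IL3RA stood at -0.20 ± 0.30 with shMPZL3 #1 and -0.62 ± 0.31 with shMPZL3 #2, uncalled in both.

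The summed level of 7 fibroblast markers was 379 to 465 normalized counts in the control, 874 to 1273 with shMPZL3 #1 and 694 to 777 with shMPZL3 #2. Among them, 3 were tested and DCN was at 0 in all libraries. PDGFRA had at most 2 reads and PDGFRB at most 6 in any library. COL3A1 had 0 reads in the control and up to 12 with shMPZL3 #1. Most of the sum in the control was COL1A1, with a mean of 265 normalized counts. COL1A1, a chain of type I collagen with 173 to 924 reads per library, rose by 1.38 ± 0.18 and 0.63 ± 0.18 with the 2 shRNAs (edgeR adjusted p = 3.26e-05 and 0.0229). COL1A2, the other chain, rose with shMPZL3 #1 (1.63 ± 0.26, edgeR adjusted p = 0.000219), and both collagen chains were lower with shMPZL3 #2 than with shMPZL3 #1. LUM, the proteoglycan lumican, rose by 0.79 ± 0.25 and 1.45 ± 0.25 (edgeR adjusted p = 0.0246 and 0.000736). The COL1A1 call with shMPZL3 #2 was lost without replicate 2 or 3 of the control or replicate 1 or 3 of shMPZL3 #2, and the LUM call with shMPZL3 #1 without replicate 2 or 3 of the control or of shMPZL3 #1 (edgeR adjusted p = 0.0637 to 0.124 over both).

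The summed level of 4 endothelial markers was 168 to 208 normalized counts in the control, 152 to 183 with shMPZL3 #1 and 257 to 332 with shMPZL3 #2. Of 3 that were tested, CDH5 (VE-cadherin) rose with shMPZL3 #2 (1.05 ± 0.21, edgeR adjusted p = 0.00282), and VWF and PECAM1 were called with neither shRNA. The part of these markers in the OAS differences was not tested.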

How the data were processed

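Poly-A selected, non-directional RNA libraries were sequenced by the authors. Per the labels, reads were aligned with HISAT2 2.0.5 to hg38 and counted with featureCounts 1.5.0-p3, and the authors deposited raw read counts per gene without normalization. All 58735 gene IDs, and 58676 positions, matched GENCODE v29. Low genes were removed with filterByExpr, and 16928 were tested with edgeR 4.0.16 (R 4.3.3) quasi-likelihood tests after TMM scaling. One model held 3 groups and another grouped both shRNAs, with two-sided tests and Benjamini-Hochberg adjusted p under 0.05 called. RPKM used the deposited gene lengths. The SE of a log2 difference was its absolute value divided by the square root of the quasi-likelihood F statistic, not a separately fitted error. Log2 CPM used a prior count of 2. Members and lists were chosen with earlier results of these data known. Named genes were the members, MPZL3, at most 4 called genes per pathway list, the 5 nearest profiles and the flanking genes. Some of these genes are not reported here. Other list genes, among them DDX58 and EIF2AK2, and markers were named after their values were seen. Counts were also simulated for the shRNA comparison over 16928 genes. Recovered were 23 of 57 genes changed 1.5-fold, 51 of 72 changed 2-fold and 64 of 71 changed 4-fold. Replicates of 1 group differed by more than sampling noise. Alternatives used other scalings, filters, DESeq2 1.42.0, a replicate block and each library left out.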

Additional observations from a re-analysis of the deposited data

Results flagged for a closer look

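The response of 3 genes differed between the 2 shRNAs by the edgeR test of the difference itself. OAS1 was higher with shMPZL3 #2 than with shMPZL3 #1 by 1.40 on the log2 scale, OAS3 by 1.29 and OASL by 1.79, with edgeR adjusted p of 0.00745, 0.00559 and 0.00308. In each of these genes all 3 shMPZL3 #2 libraries lay above all 3 shMPZL3 #1 libraries, as did 15.4% of all genes. Of all genes tested, 7.56% were called higher in this comparison. The OAS1 call was lost with DESeq2 (DESeq2 adjusted p = 0.12).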

How the results depend on the processing

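Every member kept its direction against the control and between the shRNAs under each alternative that could test it. A filter of at least 10 counts in every library removed OAS1, OAS2 and OASL, which then had no value. Between the shRNAs, the OAS2 difference became a call with no filter on low counts (1.32, edgeR adjusted p = 2.02e-13) and with the replicate block (1.69, edgeR adjusted p = 1.59e-05), against a range of 2.02e-13 to 0.371 over its alternatives, and the OAS1 difference was no longer called with DESeq2 (1.39). The cause was not tested. The replicate numbers of the labels share no stated source, and the main fits did not pair libraries by them. Between the 2 shRNA groups, deviations of same-numbered libraries correlated at 0.137, 0.218 and 0.097. Those of differently numbered libraries correlated at -0.147 to 0.004. For pairs with a control library the ranges were -0.0014 to 0.111 for the same number and -0.0965 to 0.0671 for different numbers. Whether same-numbered libraries of the 2 shRNAs share a source was not tested. The block moved the neighbours called to 7 (shMPZL3 #2 against control) and 6 (between the shRNAs), and the pathway genes called between the shRNAs to 8, against 5 before and 3 in the fit of the 6 knockdown libraries. Of the neighbours, 4 were called with shMPZL3 #2 under the filter of 10 counts and 6 by DESeq2, 1 between the shRNAs in the fit of the 6 knockdown libraries, and 3 in the grouped comparison with no filter. Taking the mean of both shRNAs in the 3-group model called 4677 genes in the grouped comparison, against 2667 before.

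With 1 library left out at a time, genes called ran from 1366 to 3055 with shMPZL3 #2, from 1469 to 2953 between the shRNAs and from 625 to 3187 in the grouped comparison. The log2 difference of OAS1 ran from 3.60 to 5.18 with shMPZL3 #1, 5.22 to 6.58 with shMPZL3 #2 and 4.66 to 6.04 grouped. That of OAS2 ran from 3.47 to 5.70 with shMPZL3 #1 and from 0.88 to 2.59 between the shRNAs. Pathway genes called ran from 2 to 5 between the shRNAs. Neighbours called ran from 3 to 9, 0 to 5, 0 to 3 and 0 to 5 with shMPZL3 #1, with shMPZL3 #2, between the shRNAs and grouped. Depth limits the control values of OAS1, OAS2 and OASL most, with 1 to 20 reads per control library.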
